A study of Mus musculus with 14 samples.

Results

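The 10 genes described here are immediate early genes and their close partners in mouse liver: the AP-1 subunit genes *Junb*, *Jun*, *Jund*, *Fos* and *Fosb*, the EGR1 gene *Egr1* with its corepressor genes *Nab1* and *Nab2*, and the fast response genes *Ier2* and *Atf3*. They are 10 of the 55487 genes in the count table, found by their symbols, and they were chosen with the difference between indole-treated and vehicle-treated mice already known, so that difference is described here and not tested. Enough reads for the expression filter were found for 9 of them, out of 12653 genes in all, and *Fosb* was the exception.

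Messenger RNA of the right liver lobe was sequenced from 14 male TALLYHO/JnG mice, an inbred strain that develops type 2 diabetes from many genes acting together, aged 8 to 12 weeks. The vehicle group (*n*=7) received water and the indole group (*n*=7) received indole, a bacterial product of tryptophan, at 20 mg/kg, in each case by oral gavage 2 times a day for 7 days. Both groups then had the same metabolic tests, with further doses of their own treatment in between, and tissue was taken the day after the last test. Nothing in the labels links a mouse of one group to a mouse of the other or gives a batch.

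Immediate early genes are transcribed within minutes of a signal such as a growth factor, cytokine, hormone or stress, without the need for new protein, and their transcripts are short-lived. AP-1 is a dimer of a JUN protein with a FOS, ATF or second JUN protein that binds DNA and switches further genes on or off, and JUNB often opposes what JUN does. EGR1 is a zinc finger activator that binds GC-rich sites, and NAB1 and NAB2 bind to it and repress its targets, with *NAB2* itself being a target of EGR proteins, which closes a negative feedback loop.

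The DNA before the start site is shown for 3 AP-1 subunit genes, *Junb*, *Jun* and *Fos*, because their levels between the groups and between mice are the subject of what follows. For 8 of the 10 members, the 250 bases upstream of the RefSeq start site on GRCm38.p6 were searched. Both strands were searched for the AP-1 letters TGANTCA, the CRE TGACGTCA, the EGR letters GCGNGGGCG, the CArG box and the STAT letters TTCCNGGAA. The TATA letters TATAAA were searched for on the strand of the gene only. The windows are given 5′ to 3′ on the strand of the gene, with matches in capitals. The *Junb* window is chr8:84978749-84978998 (minus strand), the *Jun* window is chr4:95052223-95052472 (minus strand) and the *Fos* window is chr12:85473640-85473889 (plus strand).
Junb window: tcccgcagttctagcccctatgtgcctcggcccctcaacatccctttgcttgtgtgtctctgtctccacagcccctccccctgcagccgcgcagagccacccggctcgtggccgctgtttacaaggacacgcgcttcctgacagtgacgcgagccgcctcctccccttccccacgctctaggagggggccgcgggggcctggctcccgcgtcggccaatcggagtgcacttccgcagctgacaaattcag
Jun window: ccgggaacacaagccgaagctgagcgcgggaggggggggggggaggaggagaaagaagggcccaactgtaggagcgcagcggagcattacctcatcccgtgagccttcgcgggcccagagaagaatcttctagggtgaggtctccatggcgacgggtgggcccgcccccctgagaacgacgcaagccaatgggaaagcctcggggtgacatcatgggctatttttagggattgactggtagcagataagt
Fos window: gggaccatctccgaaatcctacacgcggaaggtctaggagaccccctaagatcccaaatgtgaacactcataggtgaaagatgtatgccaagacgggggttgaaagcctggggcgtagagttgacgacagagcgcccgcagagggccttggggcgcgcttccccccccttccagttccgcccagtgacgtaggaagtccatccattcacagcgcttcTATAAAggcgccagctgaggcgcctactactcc

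Among these 3 windows the only match was TATAAA in *Fos*, 33 to 28 bases before the start site, letters that 7.59% of 32851 promoter windows of the same length held. The EGR letters, held by 4.70% of those windows, were found in *Nab1* and *Fosb* and in none of the other members scanned. They are shown with 10 bases on each side because *Nab1* encodes a partner of EGR1: the *Fosb* match lies in chr7:19310077-19310105, and the 3 *Nab1* matches lie in chr1:52500571-52500599, chr1:52500539-52500567 and chr1:52500468-52500496, all on the minus strand as written here.
Fosb site: tgacgcaagcGCGGGGGCGggtcccggag
Nab1 site a: gccccgcggcCGCCCACGCcgggatctgc
Nab1 site b: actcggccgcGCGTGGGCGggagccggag
Nab1 site c: gcggggcgggGCGGGGGCGgcggaggtgg

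The *Nab1* matches begin 141, 109 and 38 bases before its RefSeq start, and the first of them reads as the EGR letters on the opposite strand. None of the 8 windows held the AP-1, CRE, CArG or STAT letters, which 6.75%, 1.55%, 1.47% and 0.913% of all windows held, and no matches overlapped. Only these letters were searched, so variants of them and sites more than 250 bases upstream were not counted. Their absence here does not show that a promoter lacks such sites. The *Nab2* window held none of the letters searched. The RefSeq start used here lay 1865 bases inside the *Nab2* gene of the count table, 231 bases inside *Nab1* and 34706 bases inside *Atf3*, and 1210 bases outside *Jund*, so for these genes the window belongs to 1 of several start sites. A match describes the letters only, and binding was not measured.

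The libraries held 15197498 to 21060376 reads counted on genes, and no pair of libraries of a group was as alike as sampling noise alone would make them. All 8 hepatocyte markers were well above the filter, with a summed level of 69418 to 103744 counts per 1000000 reads (CPM, scaled by TMM) in each mouse. The livers labelled G8 (indole) and G11 (vehicle) stood apart, with summed levels of 18 interferon response genes of 1096 and 503 CPM against 217 to 340 CPM in the other 12 mice, and G11 also had the highest sum of 12 IL-6 and acute-phase genes, 13483 CPM. All 5 erythroid markers tested were higher in the indole group (summed level of 7 markers 204 to 384 CPM in vehicle and 263 to 1094 CPM in indole), and all 4 mesothelial markers tested were lower (summed level of 6 markers 5.41 to 21.3 CPM and 1.21 to 13.1 CPM). The 8 sinusoidal endothelium markers were all higher in the indole group (81.7 to 144 CPM and 105 to 190 CPM), as were 11 of 12 Kupffer cell and macrophage markers (125 to 298 CPM and 150 to 548 CPM), and all 5 bile duct markers tested were lower (33.1 to 46.6 CPM and 27.5 to 45.1 CPM). The median sum of the Kupffer cell and macrophage markers was nevertheless lower under indole, 219 CPM against 230 CPM. Only G8, at 548 CPM, exceeded the vehicle range. The part of these markers in the results below was not tested. No gene of the 12653 had an adjusted *p* below 0.05 between the groups in edgeR (Benjamini–Hochberg), the smallest being 0.998, while 482 had an unadjusted *p* below 0.05, and DESeq2 on the same genes gave 1 and 532.

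Of the 9 members with enough reads, 7 were lower and 2 were higher in the indole group, with a median log2 fold change of −0.22 against 0.00 over all genes tested, of which 48.7% were lower. Since the genes were chosen on this contrast, nothing is read from the count, nor from how many mice of a group lay beyond the other group. For comparison, 3.81% of all genes tested had an unadjusted *p* below 0.05, with 2.28% lower and 1.53% higher. The largest differences were those of *Junb* and *Nab2*, both lower in the indole group. In bulk tissue, fewer cells that express a gene and less RNA per cell cannot be told apart.

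**Figure D1:**
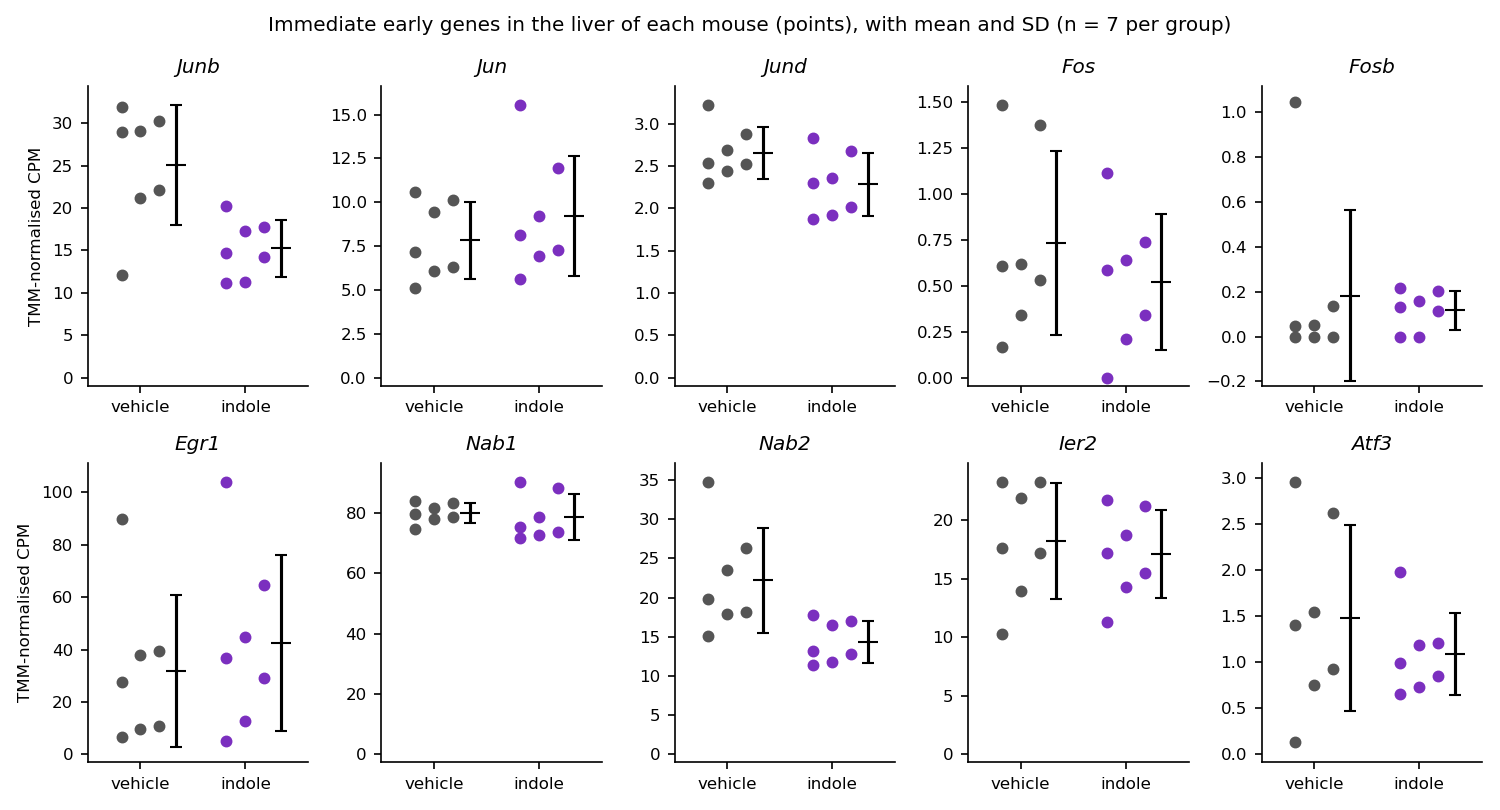
TMM-normalised CPM of the 10 members in each mouse (points; vehicle grey, indole purple; linear axes that include 0), with the mean (horizontal tick) and SD (bar) of each group, *n*=7. *Junb* and *Nab2* lay lower in most indole-treated mice, *Egr1* ranged from 5.07 to 104 CPM over the 14 mice, and *Nab1* stayed between 71.6 and 90.4 CPM.

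*Junb* (ENSMUSG00000052837, chromosome 8 from 84976910 to 84978718 on GRCm38, minus strand) had the most abundant RNA of the JUN-family subunit genes in these livers. Its level was lowest at 12.1, median at 29.0 and highest at 31.9 CPM in the vehicle group, and 11.1, 14.7 and 20.2 CPM under indole. Of the 7 vehicle-treated mice, 6 lay above every indole-treated mouse, and the exception was G11, which at 12.1 CPM lay among the lowest indole-treated mice. All 7 indole-treated mice lay below the vehicle median. *Junb* was chosen on this contrast, and the share of all genes separated as far was not counted. The group means were 25.1±7.05 and 15.2±3.40 CPM (SD, *n*=7), a log2 fold change of −0.72 (standard error 0.194), from 168 to 674 reads per mouse.

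Leaving out 1 mouse at a time moved the log2 fold change of *Junb* between −0.84, without G11, and −0.65, without G13. Without both G8 and G11, the 2 mice with high interferon genes, it was −0.78. Without G8 alone the log2 fold change was −0.66. G11 had the least *Junb* of the vehicle group, so leaving it out raises the vehicle mean.

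*Jun*, the founding AP-1 subunit and a driver of liver cell proliferation, did not share this pattern. It was lowest at 5.09, median at 7.18 and highest at 10.6 CPM under vehicle and 5.64, 8.14 and 15.5 CPM under indole. The groups overlapped almost throughout, and only the indole-treated mice G7 and G8 exceeded the vehicle maximum. The log2 fold change of 0.24 (standard error 0.218) came to 0.07 without G8 and to −0.01 without G8 and G11, so its sign rested on those mice. G8 also had the highest sum of 12 Kupffer cell and macrophage markers, 548 CPM against 125 to 298 CPM in the other 13 mice.

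*Jund*, the JUN-family subunit that is usually expressed at a steady level, had 2.30, 2.53 and 3.22 CPM (lowest, median and highest) under vehicle and 1.87, 2.30 and 2.83 CPM under indole. Of the 7 indole-treated mice, 4 lay below the lowest vehicle-treated mouse, at 30 to 68 reads per mouse over all 14. Its log2 fold change of −0.22 (standard error 0.162) had a range of −0.28 to −0.17 when 1 mouse was left out.

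As a share of the summed *Jun*, *Junb* and *Jund* level per kilobase, *Junb* made up 76.5±5.46% (SD, *n*=7) under vehicle and 66.2±8.12% (SD, *n*=7) under indole. The lowest, median and highest shares were 68.6%, 77.3% and 83.5% in vehicle-treated mice and 50.7%, 68.7% and 73.6% in indole-treated mice. *Junb* was the most abundant of the 3 in every mouse, and the ranges of its share overlapped between the groups. On the other strand, *Gm11175* overlaps *Jund* by 919 bases and *Junos* overlaps *Jun* by 689 bases, with 41 and 55 reads over all mice. With the strand setting of the counting unknown, such overlap can change the counts of *Jun* and *Jund*. Its effect on these shares and on the order of levels per kilobase was not tested.

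The FOS partners had few reads. *Fos* had 0.166, 0.610 and 1.48 CPM (lowest, median and highest) under vehicle and 0, 0.586 and 1.11 CPM under indole, with no read in G12, a count that allows up to 3 reads in that library. The groups overlapped over most of their range. At 0 to 29 reads per mouse its log2 fold change of −0.53 had a standard error of 0.527, and it lay between −0.82 (without G5) and −0.26 (without G4) when 1 mouse was left out.

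*Fosb* had 23 reads in the 7 vehicle-treated mice together, 19 of them in G4, and 14 reads in the 7 indole-treated mice. Its level was 0 to 1.04 CPM in the vehicle group (median 0.0473) and 0 to 0.214 CPM under indole (median 0.131), so the vehicle mean of 0.182±0.382 CPM (SD, *n*=7) was that of 1 mouse. The expression filter left it out of the fit.

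*Egr1* (ENSMUSG00000038418) varied far more between mice of the same group than between the groups. Its level was lowest at 6.65, median at 27.7 and highest at 90.0 CPM under vehicle and 5.07, 36.7 and 104 CPM under indole. The lowest and the highest of all 14 mice, G12 and G14, were both indole-treated, and apart from them the indole range lay inside the vehicle range. The means were 31.8±29.0 and 42.4±33.7 CPM (SD, *n*=7), and the log2 fold change of 0.42 had a standard error of 0.689. Without G14 it was 0.02 and without the vehicle-treated mouse G6 it was 0.94, so no direction can be given for *Egr1*.

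*Nab2* (ENSMUSG00000025402, chromosome 10 from 127660918 to 127668568, minus strand), the inducible corepressor of EGR proteins, was the second member with a lower level in the indole group. It had 15.1, 19.8 and 34.8 CPM (lowest, median and highest) under vehicle and 11.4, 13.1 and 17.8 CPM under indole. As for *Junb*, 6 of the 7 vehicle-treated mice lay above every indole-treated mouse, but here the exception was G13 and not G11. All 7 indole-treated mice lay below the vehicle median and 4 lay below the lowest vehicle-treated mouse. As for *Junb*, the gene was chosen on this contrast and the share of all genes separated as far was not counted.

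The means of *Nab2* were 22.2±6.70 and 14.3±2.70 CPM (SD, *n*=7), a log2 fold change of −0.63 (standard error 0.168), from 174 to 634 reads per mouse. The range was −0.71 to −0.48 with 1 mouse left out, the smaller difference being without G4, and it was −0.65 without G8 and G11. The 3′ end of *Nab2* overlaps *Stat6* by 40 bases on the other strand and its other end overlaps *Nemp1* by 1668 bases. The strand setting of the read counting is not given in the sources used here. Both neighbours were near level between the groups, *Stat6* at −0.11 (standard error 0.0947) and *Nemp1* at −0.01 (standard error 0.120) as log2 fold changes, and their adjusted *p* in edgeR was 0.998.

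*Nab1* (ENSMUSG00000002881, chromosome 1 from 52457294 to 52500679, minus strand), the other corepressor, had 74.6, 79.8 and 83.9 CPM (lowest, median and highest) under vehicle and 71.6, 75.2 and 90.4 CPM under indole. Its log2 fold change of −0.02 (standard error 0.0673) was the smallest of the members in size and the one with the smallest standard error. Its 3 matches to the EGR letters lie before its RefSeq start but inside the gene as the count table's coordinates place it. *Nab1* was among the steadiest members in vehicle-treated livers, while *Egr1* itself differed 13.5-fold between the lowest and the highest of the same mice.

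As a share of *Nab1* and *Nab2* together, per kilobase, *Nab2* was 27.5±5.50% (SD, *n*=7) under vehicle and 20.3±3.42% (SD, *n*=7) under indole. The lowest, median and highest shares were 20.5%, 25.1% and 36.6%, and 15.6%, 19.5% and 24.9%. The ranges overlapped, and *Nab1* was the larger of the pair in every mouse.

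*Ier2*, a nuclear immediate early gene often induced together with *Junb*, had 10.3, 17.6 and 23.3 CPM under vehicle and 11.3, 17.2 and 21.7 CPM under indole (lowest, median and highest). The indole range lay inside the vehicle range, and the log2 fold change was near 0, at −0.08 (standard error 0.179). The level of *Junb* per kilobase, divided by that of *Ier2* in the same mouse, was 1.20±0.385 (SD, *n*=7) under vehicle and 0.758±0.126 (SD, *n*=7) under indole. The ranges, 0.767 to 1.92 and 0.586 to 0.965, overlapped. With *Ier2* near level, this ratio largely repeats the contrast on which *Junb* was chosen.

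*Atf3*, a stress-induced ATF-family repressor that pairs with JUN proteins, had 0.136, 1.40 and 2.96 CPM under vehicle and 0.655, 0.996 and 1.98 CPM under indole (lowest, median and highest). The indole-treated mice lay inside the vehicle range. With 2 to 54 reads per mouse its log2 fold change came to −0.45 (standard error 0.415), it lay between −0.66 (without G3) and −0.19 (without G4) with 1 mouse left out, and it was −0.05 in limma voom with quality weights.

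**Figure D2:**
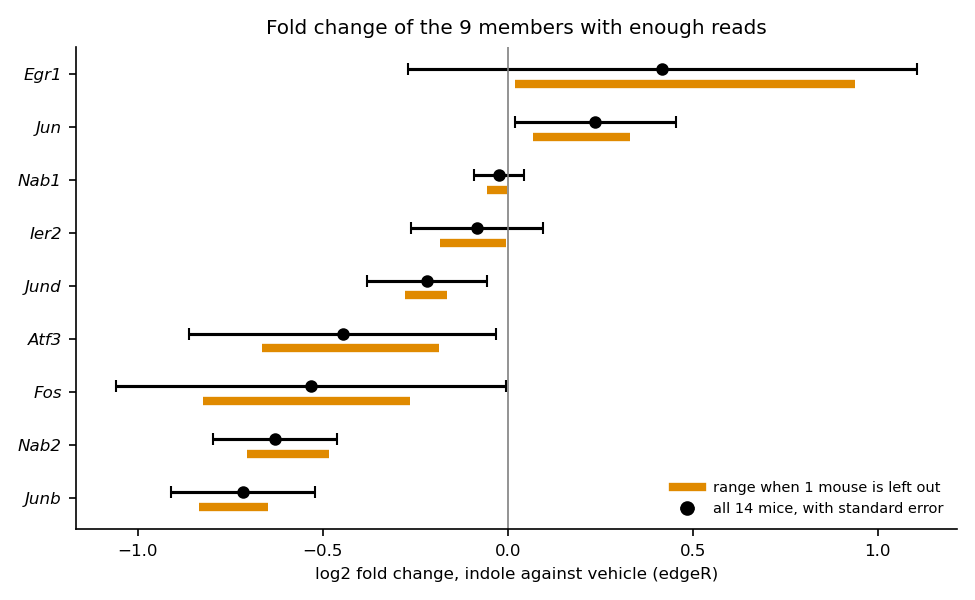
Log2 fold change, indole against vehicle, of the 9 members with enough reads (points, with the standard error from edgeR as bars), and the range of the same value when each of the 14 mice was left out in turn (orange). *Junb* and *Nab2* were at −0.48 or lower in every fit shown, whereas the range of *Egr1* ran from 0.02 to 0.94.

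Levels of different members were compared as CPM per kilobase of the gene length in the table. In the vehicle group the order of the means was *Nab1* (19.5), *Junb* (13.9), *Ier2* (11.9), *Nab2* (7.56), *Egr1* (7.08), *Jun* (2.46), *Jund* (1.59), *Atf3* (0.687), *Fos* (0.311) and *Fosb* (0.0292). Among neighbours in this order only *Nab1* and *Junb*, and *Jund* and *Atf3*, had ranges that did not overlap. In 7 of 7 vehicle-treated mice, however, *Ier2* was above *Nab2* within the mouse, and *Jun* was above *Jund*. *Junb* was above *Ier2* in 5 of 7.

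In the indole group the order was *Nab1* (19.2), *Ier2* (11.2), *Egr1* (9.45), *Junb* (8.43), *Nab2* (4.88), *Jun* (2.90), *Jund* (1.37), *Atf3* (0.505), *Fos* (0.221) and *Fosb* (0.0187). By group mean, *Junb* thus stood in the second place in vehicle-treated and in the fourth in indole-treated mice. This restates the contrast on which *Junb* was chosen, and nothing further is read from it. The ranges of *Egr1* and *Junb* overlapped, with *Egr1* above *Junb* in 3 of 7 indole-treated mice, whereas those of *Junb* and *Nab2* did not.

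The spread between mice of one group used no difference between the groups. The SD of log2 CPM of *Egr1* was 1.34 under vehicle and 1.46 in the indole group, above 99.8% and 99.7% of all genes tested, whose median SD was 0.22 and 0.24. *Fos* lay at percentiles 98.5 and 98.9, and *Atf3* at 99.6 under vehicle and 83.1 in the indole group. These were 5 of the 18 values of the 9 members in both groups above the 95th percentile.

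*Nab1* was at the other end, with an SD of 0.06 in the vehicle group (percentile 0.885) and 0.14 in the indole group (percentile 15.9). The remaining members lay between percentiles 28.8 and 87.6, with *Junb* at 87.6 and 66.4 and *Nab2* at 80.9 and 55.9 in the vehicle and indole groups. The spread of *Fos* and *Atf3* includes counting error at their few reads. That of *Egr1*, with 90 to 1778 reads per mouse, does so far less: its biological coefficient of variation in edgeR was 0.849, against 0.159 for the trend at its level.

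Covariation between members within a group was tested as Pearson's r of log2 CPM over 7 mice, for 36 pairs in each of the 2 groups. None of the 72 tests had an adjusted *p* below 0.05 (exact permutation test, two-sided, Benjamini–Hochberg; smallest adjusted *p*=0.114), and 3 had an unadjusted *p* below 0.05, with 4 by Spearman's rho. The smallest *p* that 7 mice allow is 0.000198.

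*Jun* and *Ier2* were the most closely tied pair, in vehicle-treated mice, with r=0.94 and rho=0.93 (*n*=7, exact permutation *p*=0.00159 and 0.00675, adjusted *p*=0.114 and 0.486), and r was 0.91 without the 2 mice farthest from the median of *Jun*. In indole-treated mice r was −0.15 for this pair and 0.92 without G7 and G8, and the difference between the groups was not tested. *Junb* and *Fos* followed in vehicle-treated mice with r=0.84 and rho=0.79 (exact permutation *p*=0.00595 and 0.0480, adjusted *p*=0.214 and 0.864), and r was 0.74 without G6 and G11.

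*Jun* and *Egr1* had r=0.66 in vehicle-treated and 0.74 in indole-treated mice (exact permutation *p*=0.112 and 0.0607, adjusted *p*=0.938 and 0.624), with rho=0.82 and 0.86 (exact permutation *p*=0.0341 and 0.0238, adjusted *p*=0.819 for both). Without the 2 mice farthest from the median, r was 0.26 in vehicle-treated mice (G1 and G6 left out) and 0.93 in indole-treated mice (G7 and G8 left out), so the first value rests on those mice. *Egr1* and its corepressor *Nab2* leaned the opposite way, with r=−0.30 in vehicle-treated and −0.74 in indole-treated mice. The second value (rho=−0.57, exact permutation *p*=0.0587 and 0.200, adjusted *p*=0.624 for r) came to −0.29 without G2 and G12. *Fos* and *Egr1* had r=0.79 in indole-treated mice (rho=0.46, exact permutation *p*=0.0335 and 0.302, adjusted *p*=0.624 for r), but r was −0.32 without G2 and G12, so that relation rests on those mice.

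*Junb* and *Nab2*, the pair that was lower in the indole group, had r=0.21 in vehicle-treated and −0.12 in indole-treated mice. Both values changed sign without the 2 farthest mice, to −0.42 without G6 and G11 and to 0.74 without G12 and G14, so no relation within a group can be read from them. Over the 36 pairs, r was positive for 29 under vehicle and for 20 in the indole group.

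**Figure D3:**
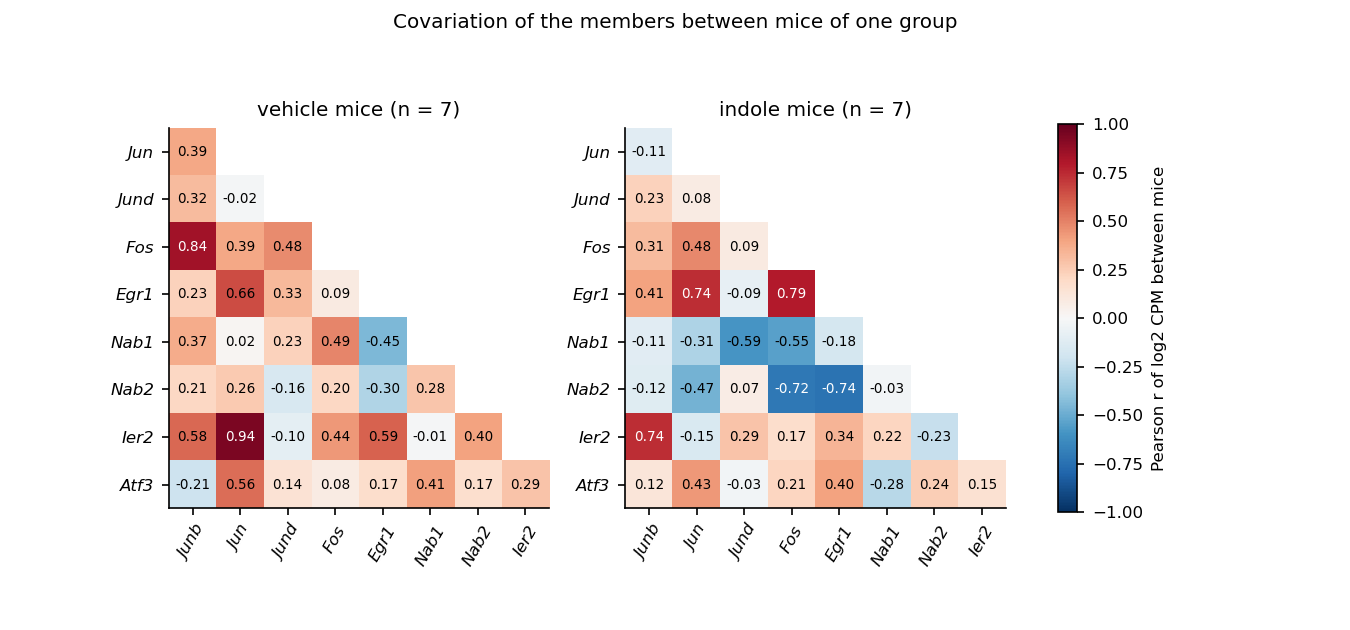
Pearson's r of log2 CPM between every pair of the 9 members, over the 7 vehicle-treated mice (left) and the 7 indole-treated mice (right), with red for positive and blue for negative values. *Jun* and *Ier2* had the highest value, 0.94 in the vehicle group, and *Egr1* and *Nab2* were negative in both groups.

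*Junb*, *Egr1* and *Nab2* were also set against 10 genes of the IL-6 and immediate early response in each group, which gave 60 further tests. None had an adjusted *p* below 0.05 (exact permutation test, two-sided; smallest adjusted *p*=0.381), and 5 had an unadjusted *p* below 0.05 for r (2 for rho), all of them in indole-treated mice. *Nab2* varied with *Srf*, the serum response factor that drives many immediate early genes (r=0.93, rho=0.75, exact permutation *p*=0.0127 and 0.0663, adjusted *p*=0.381 and 0.884, r=0.85 without G3 and G12). It also varied with *Socs3*, the feedback inhibitor of IL-6 signalling (r=0.88, rho=0.79, exact permutation *p*=0.00992 and 0.0480, adjusted *p*=0.381 and 0.884, r=0.90 without the same mice). Among vehicle-treated mice *Nab2* had r=−0.51 with *Socs3* (−0.58 without G4 and G9) and 0.33 with *Srf* (−0.61 without the same mice), and the differences between the groups were not tested.

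*Junb* varied with *Dusp1*, a MAP kinase phosphatase (r=0.82, rho=0.86, exact permutation *p*=0.0258 and 0.0238, adjusted *p*=0.414 and 0.884), with r=0.96 without G12 and G14, against r=0.40 among vehicle-treated mice. *Egr1* had r=0.81 with *Klf6*, a zinc finger factor (rho=0.57, exact permutation *p*=0.0276 and 0.200, adjusted *p*=0.414 for r), and 0.78 with *Zfp36*, which marks short-lived mRNAs for decay (rho=0.54, exact permutation *p*=0.0448 and 0.236, adjusted *p*=0.538 for r). Both *Egr1* values rest on G2 and G12, without which they were −0.14 and −0.49.

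The genes whose levels most resembled each of *Junb*, *Egr1* and *Nab2* were ranked by r of log2 CPM over the 14 mice, after the mean of each group had been subtracted, among 11693 genes with a mean of at least 1 CPM. Both values of a point come from the same library and share its depth and RNA composition, and the highest of so many values are described without a test. *Egr1* was followed by *Txnip* (0.91), which encodes a glucose-responsive inhibitor of thioredoxin and of glucose uptake, *Depp1* (0.89), a FOXO-regulated autophagy gene, and *Arrdc3* (0.88), an arrestin relative of *Txnip*. *Rab20* (0.85) and *Rnf39* (0.84) came next.

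The mice with the most and the least *Egr1* show this. G14 and G6, with 104 and 90.0 CPM of *Egr1*, had 137 and 131 CPM of *Txnip*, and G12, with 5.07 CPM of *Egr1*, had 41.6 CPM of *Txnip*, the lowest of the 14. *Txnip* was highest at 158 CPM in G8, the mouse with the third highest *Egr1* level.

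At the negative end, picked after the values were seen, were *Slc25a25* (−0.88), a mitochondrial ATP-Mg carrier, and *G6pc* (−0.87), the glucose-6-phosphatase that releases glucose from the liver. G12 had the highest *G6pc*, 344 CPM, and the highest *Slc25a25*, 125 CPM, and G14 had 123 CPM and 1.82 CPM. The values of *Egr1* with *G6pc* were −0.76 within the vehicle group and −0.96 within the indole group, and those with *Txnip* were 0.95 and 0.90.

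**Figure D4:**
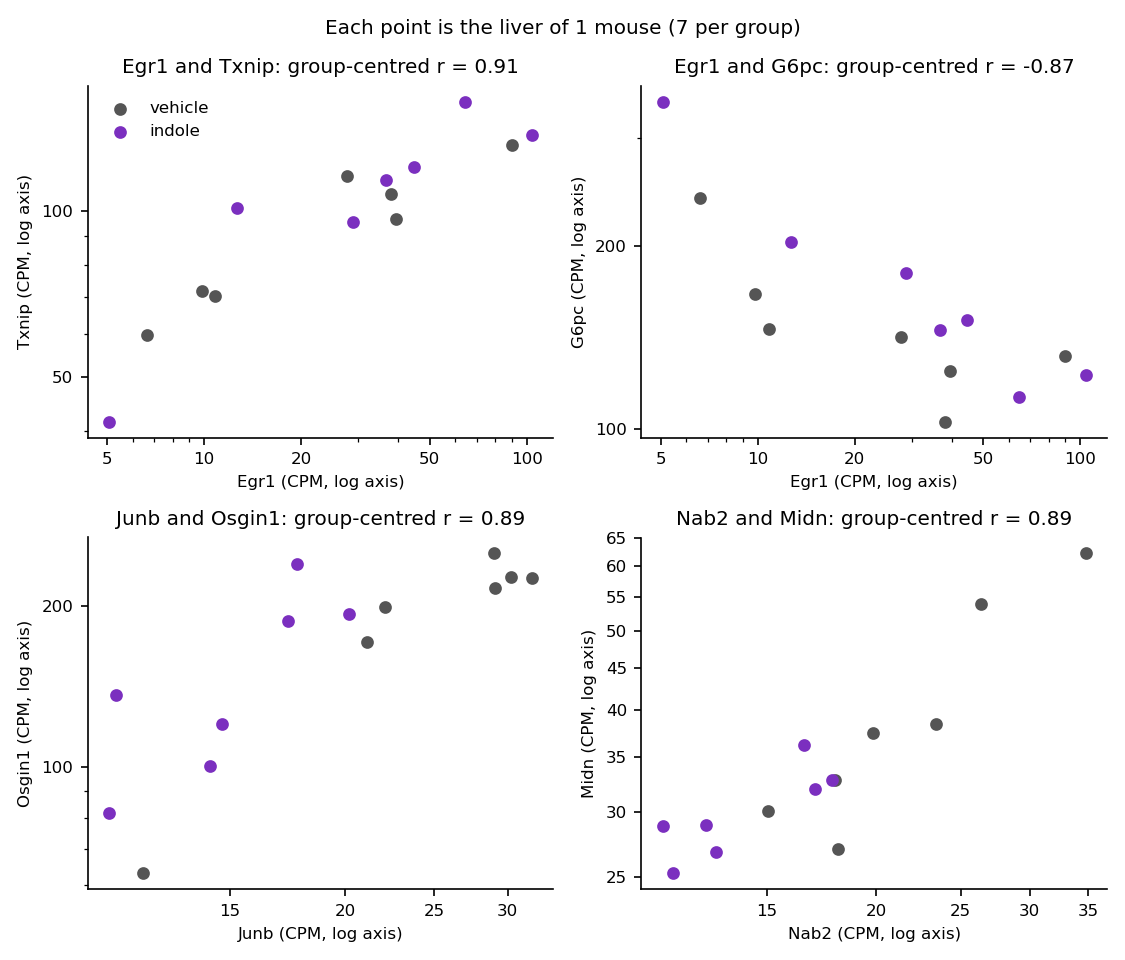
Levels in CPM (log axes) of a member (x axis) and another gene (y axis) in each of the 14 mice (vehicle grey, indole purple), for *Egr1* with *Txnip*, *Egr1* with *G6pc*, *Junb* with *Osgin1* and *Nab2* with *Midn*. *Txnip* was higher and *G6pc* lower in mice with more *Egr1* in both groups, and *Osgin1* was lowest, at 63.2 CPM, in the vehicle-treated mouse with the least *Junb*.

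*Junb* was followed by *Med4* (0.90), a Mediator subunit, *Kifc3* (0.90), a kinesin, *Osgin1* (0.89), an oxidative stress response gene, and *Trim33* (0.86), a ubiquitin ligase. G11, with the least *Junb* in the vehicle group, also had the least *Osgin1* of all mice, 63.2 CPM. *Osgin1* had 193±62.3 CPM under vehicle and 151±57.0 CPM under indole (SD, *n*=7), and edgeR put its log2 fold change at −0.35 (standard error 0.302, adjusted *p*=0.998). The lowest value, picked after it was seen, was that of *Slc1a4* (−0.88), an amino acid transporter gene.

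*Nab2* was followed by *Mex3d* (0.92), which encodes an RNA-binding protein, *Dnttip2* (0.92), *Fam104a* (0.90), *Midn* (0.89) and *Sertad2* (0.88). *Midn* encodes midnolin, which takes immediate early proteins such as EGR1 and FOSB to the proteasome. *Midn* had 27.0, 37.5 and 62.2 CPM (lowest, median and highest) under vehicle and 25.2, 28.9 and 36.3 CPM under indole, and its log2 fold change was put by edgeR at −0.42 (standard error 0.165, unadjusted *p*=0.0217 and adjusted *p*=0.998). G4 had both the most *Nab2*, 34.8 CPM, and the most *Midn*, 62.2 CPM. No gene was among the 5 most alike of more than one of these 3 members.

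Other immediate early genes were taken from a list of 64 in the table, of which 53 had enough reads and 3 (*Egr2*, *Egr4* and *Npas4*) had no read in any mouse. Of the 53, 34 were lower and 19 higher in the indole group, with a median log2 fold change of −0.08 against 0.00 over all genes. That balance rested in part on the vehicle-treated mouse G1, without which 29 were lower and 25 higher and the median was −0.01. An unadjusted *p* below 0.05 was found for 5, all lower, where 2.28% of all genes tested were lower at that threshold, and none passed the adjustment. The count was 8 without G11 and 2 without the indole-treated mouse G5, and 3 without either G9 or G10. The direction of the 4 found without G1 was mixed, with 2 lower, and of the 4 found without G4, 3 were lower.

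The 5 genes were *Socs3* (−1.25, standard error 0.412), *Id1* (−1.06, standard error 0.287), an inhibitor of helix-loop-helix factors, *Hes1* (−0.61, standard error 0.276), the Notch target, *Klf9* (−0.36, standard error 0.149), a glucocorticoid target, and *Srf* (−0.32, standard error 0.147), as log2 fold changes with an adjusted *p* of 0.998 from edgeR. Over 21 alternative settings the unadjusted *p* was 0.05 or above in 9 for *Hes1*, 9 for *Srf* and 5 for *Klf9*, and in none for *Socs3* and *Id1*. *Socs3* and *Id1* had been picked by the study from these libraries and are no independent evidence. *Id1* had 4.60, 5.07 and 13.2 CPM under vehicle and 1.86, 3.34 and 5.20 CPM under indole (lowest, median and highest), with 6 of 7 indole-treated mice below every vehicle-treated mouse. The share of all genes separated as far was not counted. *Plk3*, a stress-induced kinase, had the highest log2 fold change (0.57, standard error 0.280), and the most abundant gene of the list was *Errfi1*, a feedback inhibitor of the EGF receptor, at 581±273 and 608±214 CPM (SD, *n*=7).

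**Figure D5:**
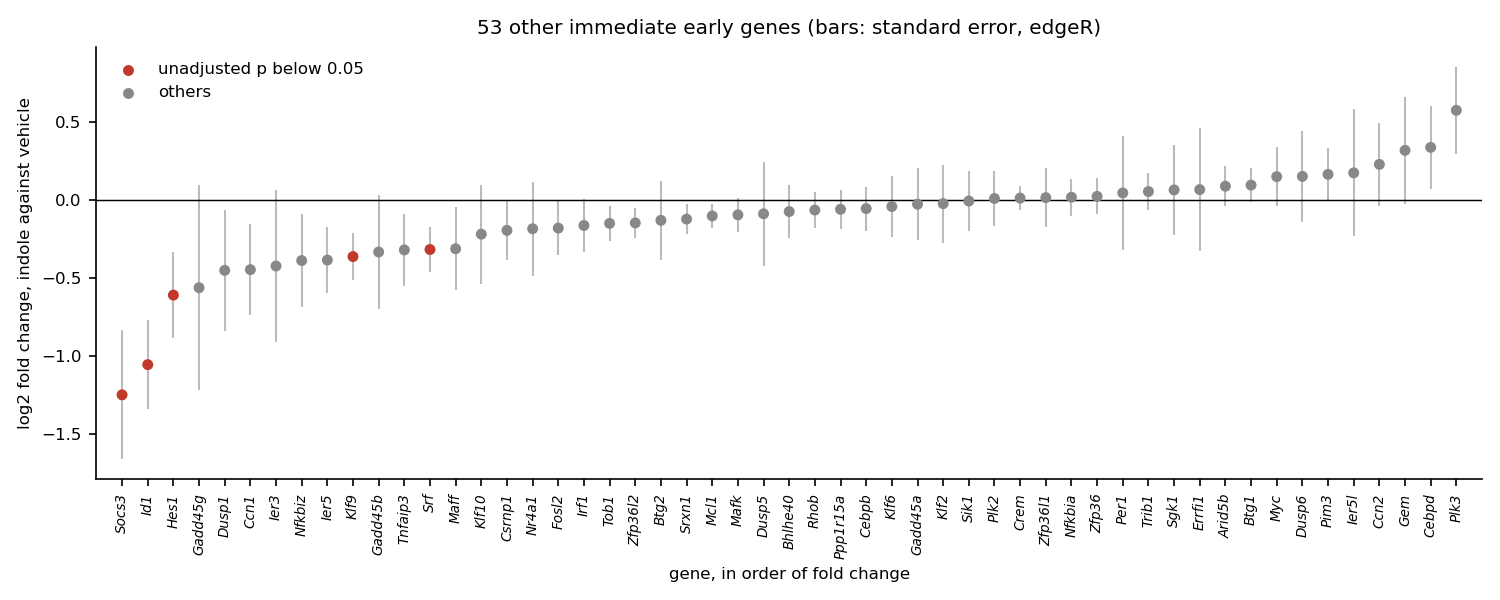
Log2 fold change, indole against vehicle, of the 53 other immediate early genes with enough reads, in rising order, with the standard error from edgeR as bars. The 5 genes with an unadjusted *p* below 0.05 (red) were all lower in the indole group, and 34 of the 53 lay below 0.

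Within that list, the gene that most resembled *Egr1* between mice was *Dusp6*, the ERK phosphatase (r=0.82 over 14 mice, group means subtracted), and the least alike was *Sgk1*, a glucocorticoid- and insulin-regulated kinase (−0.80). *Nab2* most resembled *Errfi1* (0.78) and *Klf9* (0.78), and *Junb* most resembled *Maff* (0.72) and *Gadd45a* (0.70). The median r with the 53 genes was 0.18 for *Junb*, 0.02 for *Egr1* and 0.14 for *Nab2*, against 0.01, 0.01 and −0.00 over all genes. Other lists lay farther from these values. For *Junb*, *Egr1* and *Nab2*, the median r was −0.51, −0.21 and −0.41 with 12 IL-6 and acute-phase genes. With 14 heat shock genes it was −0.30, 0.10 and −0.28, and with 30 upstream kinases and factors 0.11, −0.07 and −0.01. These are descriptions over shared libraries.

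The kinases and factors that switch these genes on were near level. Of 30 with enough reads, 13 were lower and 17 higher (median log2 fold change 0.01), and 1, *Hras*, had an unadjusted *p* below 0.05 (0.21, standard error 0.0849, adjusted *p*=0.998 from edgeR). Over all genes tested, 1.53% were higher at that threshold. *Elk1*, an ERK-activated partner of SRF, was the lowest (−0.27, standard error 0.199), and *Egfr* was the most abundant, at 270±182 and 260±88.0 CPM (SD, *n*=7).

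Of 15 other bZIP genes that can pair with AP-1 subunits, 10 were lower and 5 higher (median −0.06). *Atf1*, a CREB relative, was the one with an unadjusted *p* below 0.05 (−0.25, standard error 0.0724, adjusted *p*=0.998 from edgeR), where 2.28% of all genes tested were lower at that threshold. All 7 indole-treated mice, at 18.9 to 22.1 CPM, lay below every vehicle-treated mouse, at 22.6 to 27.3 CPM. *Atf1* was named for its *p*, so this separation is no further evidence, and the share of all genes separated as fully was not counted. The log2 fold change of *Maff* was the lowest (−0.31, standard error 0.266) and that of *Maf* the highest (0.18, standard error 0.126), and *Atf5* was the most abundant, at 412±65.4 and 411±67.3 CPM (SD, *n*=7).

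Among 16 genes known to be bound by EGR1 or AP-1, 9 were lower and 7 higher (median −0.04), and none had an unadjusted *p* below 0.05. *Ccnd1*, the cyclin D1 gene and an AP-1 target, was the lowest (−0.56, standard error 0.307), *Hmox1*, the haem oxygenase, the highest (0.30, standard error 0.261), and *Sqstm1*, the autophagy receptor gene, the most abundant, at 462±44.1 and 462±64.8 CPM (SD, *n*=7).

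Of 14 heat shock genes, a response that stress induces alongside immediate early genes, 6 were lower and 8 higher (median 0.06). *Hspa8* (0.25, standard error 0.117) and *Chordc1* (0.23, standard error 0.0959) had an unadjusted *p* below 0.05 and an adjusted *p* of 0.998 from edgeR. Over all genes tested, 1.53% were higher at that threshold. Of the 21 alternative settings, the unadjusted *p* was 0.05 or above in 11 for *Hspa8* and in 5 for *Chordc1*, and without the indole-treated mouse G5 the value of *Hspa8* was 0.15. *Hsph1* was the highest (0.38, standard error 0.232), *Dnajb1* the lowest (−0.21, standard error 0.106), and *Hsp90ab1* the most abundant, at 827±78.2 and 849±72.1 CPM (SD, *n*=7).

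All 12 IL-6 and acute-phase genes were lower in the indole group (median −0.32), and 5 of them had an unadjusted *p* below 0.05 in edgeR. The median of their summed level was nearly the same in both groups, 6005 CPM under vehicle and 5955 CPM under indole. The sums ranged from 5365 to 13483 CPM and from 4991 to 8144 CPM, with the highest in G11. Over all genes tested, 2.28% were lower at that threshold. *Socs3* counts both here and among the other immediate early genes, and the study had drawn attention to this pathway from the same libraries. G11, with the highest acute-phase sum, was the vehicle-treated mouse with the least *Junb*. Of 17 interferon response genes, 5 were lower and 12 higher (median 0.16), none with an unadjusted *p* below 0.05. Their median summed level was nevertheless lower under indole, 239 CPM against 279 CPM, and the highest, 1096 CPM, was that of G8 alone.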

How the data were processed

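Liver RNA libraries of 14 mice were grouped by the treatment in their labels. The authors made strand-specific polyA libraries, trimmed adapters, aligned reads with HISAT2 to GRCm38 (Ensembl release 102), kept unique alignments and deposited raw counts per gene. The counting tool and its strand setting are not given in the sources used here. Genes that overlap on opposite strands can therefore have shared reads.

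The deposited counts were tested with edgeR 4.0.16 in R 4.3.3 (filterByExpr, TMM, robust quasi-likelihood fit), adjusted by Benjamini–Hochberg over 12653 genes. Standard errors of log2 fold changes were obtained by dividing the absolute change by √F. Levels are TMM-normalised CPM, and log2 CPM used a prior count of 2. Correlations over the 7 mice of a group used all 5040 pairings. No libraries of a group agreed within sampling noise (chi-square at least 15.7 per degree of freedom).

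The members, the lists and the tests were chosen with earlier results of these data known. Named genes were the members, and from each list the genes with an unadjusted *p* below 0.05, the most abundant and those with the highest and lowest log2 fold change, except that marker lists and the interferon and acute-phase lists are given by counts and sums. For *Junb*, *Egr1* and *Nab2* the 5 most alike genes were named, except 1 that is not reported here. Genes outside this rule are named in the text where a member's value turns on them, having been seen first.

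Promoter windows are RefSeq sequence of GRCm38.p6. *Ier2* and *Egr1* were not analysed there. Alternatives were DESeq2 1.42.0, limma 3.58.1 voom with quality weights, RLE scaling, a fit without the robust option, other filters (none, or at least 10 counts on average), a prior count of 0.5, Spearman's rho, and leaving out each mouse or G8 and G11 together. The edgeR and DESeq2 fits and the permutation test of Pearson's r were tested on simulated data, and the Benjamini–Hochberg adjustment on values with a known answer. The other procedures were not tested in this way. Library totals of 15197498 to 21060376 counts limit the genes with few reads, and a count of 3 was taken as the floor.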

Additional observations from a re-analysis of the deposited data

Results flagged for a closer look

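Among 24 sets of 7 mice examined for a single value far from the rest, 2 exceeded Dixon's critical ratio for 7 values, which chance alone exceeds in about 1 of 20 sets. The first was *Junb* in the vehicle group, where the level of G11 (12.1 CPM) was separated from the next lowest mouse (21.1 CPM) by 0.576 of the whole range on the log2 scale. That mouse also had the highest sum of acute-phase genes, 13483 CPM against 4991 to 9313 CPM in the other mice, and the log2 fold change of *Junb* was −0.84 without it and −0.72 with it. The second was *Fosb* in the vehicle group, where G4 (1.04 CPM, 19 reads) was separated from the next mouse by 0.661 of the range, while the other 6 vehicle-treated mice had 0 to 2 reads. G4 also had the highest *Nab2*, *Fos* and *Atf3* levels of all 14 mice, 34.8, 1.48 and 2.96 CPM. The part of G4 and G11 in the group differences beyond the values given was not tested.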

How the results depend on the processing

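Under the alternatives all 378 log2 fold changes of single genes counted as unmoved, but by wide rules that say little about robustness. A member counted as moved only beyond the spread between mice, so *Egr1*, at 0.02 to 0.94, did not count. A list gene counted only if its sign changed or its adjusted *p* in edgeR, 0.998, fell below 0.05. The unadjusted *p* of *Hes1* and of *Srf* was nevertheless 0.05 or above in 9 of 21 alternatives. Of the summary counts, 92 stayed within 1.5 times, and 6 moved by more than that or past 0. Without a filter on low counts 1336 genes had an unadjusted *p* below 0.05, from 22535 tested in place of 12653. DESeq2 gave 1 gene with an adjusted *p* below 0.05, *Cyp2c29*. Leaving out 1 mouse moved the number of other immediate early genes with an unadjusted *p* below 0.05 from 5 to between 2 (without G5) and 8 (without G11), with 3 without G9 or G10. *Junb* kept a log2 fold change of −0.84 to −0.63 and *Nab2* of −0.71 to −0.48 in all 21 alternatives. *Jun* turned to −0.01 without G8 and G11, and *Ier2* to 0.02 in limma voom. The causes were not tested. No correlation passed the adjustment under any alternative, a measure limited by 7 mice per group. *Fos*, *Fosb* and *Atf3* are limited by depth. No paired analysis was possible because the labels give the groups no shared replicate numbers.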
